A study of Homo sapiens with 6 samples.

Results

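The control cells of this experiment were MDA-MB-231, an established line of triple-negative breast cancer cells, carrying an adenovirus that codes for enhanced green fluorescent protein (GFP). They were given the virus at a multiplicity of infection of 200, the number of infectious particles per cell, received fresh medium at 16 h and were lysed for RNA at 48 h. The 3 libraries labelled as GFP controls were taken by that label from 6 in the series, and the other 3, from cells given a virus for the RNA editing enzyme ADAR1, were not used here. The labels call the 3 replicates biological without saying how the cultures were separated, so the spread between them may be partly technical. Cells without virus were not analysed here, and the levels below are those of cells 48 h into transduction. The RNA of the virus and of its GFP is not among the genes of the table. A kit for total RNA that keeps strand was used, so RNAs without a poly(A) tail are included. With 1 group there was no contrast to test, and all values are levels with their spread. A value with ± is the mean and SD over the libraries (n = 3), and series of 3 values are replicates 1, 2 and 3 in that order.

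MDA-MB-231 comes from a metastatic breast carcinoma and is used as a model of the mesenchymal, claudin-low form of the disease. Triple-negative means that estrogen receptor, progesterone receptor and amplified HER2 (the product of ERBB2) are lacking, so growth rests on other receptors and on the RAS-MAPK pathway. The line is also known for secreting inflammatory cytokines under NF-kappaB, the transcription factor family that drives chemokine, interleukin and survival genes.

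Counts were deposited for 60461 genes, with totals of 87759867, 72741235 and 99589278 in GFP replicates 1, 2 and 3. A count of 0 allows up to 3 counts, which is 0.0301 to 0.0412 CPM (counts scaled to 1000000 per library) and covers counting error only. Levels are compared between genes as TPM, in which counts are divided by the deposited gene length and scaled to 1000000 per library. A gene is called present where it reached 1 TPM in each of the 3 libraries. By that rule 13893 genes were present, 23% of all in the table, of which 11377 were protein-coding, or 56.3% of the 20223 protein-coding genes. The median level of the present protein-coding genes was 18.3 TPM. Another 28977 genes, 3539 of them protein-coding, had no count in any of the 3 libraries.

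The most abundant RNAs per length were 4 short noncoding RNAs, of which a pair, AL139099.5 and AL355075.4, are known here only by clone names. AL139099.5 led in every library, with 205791, 200790.0 and 184647 TPM in replicates 1, 2 and 3, followed by RN7SL2 with 106615, 95249 and 100942 TPM. RN7SL2 is a 7SL RNA, the scaffold of the signal recognition particle that brings ribosomes making secreted proteins to the endoplasmic reticulum. RMRP, the RNA of the RNA-processing enzyme RNase MRP, followed with 50146, 59501 and 45824 TPM, and AL355075.4 with 35994, 31634 and 34124 TPM. The ranges of these 4 genes did not overlap, so their order was the same in every library. Together the 4 took 36.6% to 39.9% of all TPM but only 4.48% to 5.12% of the counts, since their deposited lengths are 268 to 638 bases. Protein-coding genes held 93.4% to 94.2% of the counts and 56.6% to 60% of the TPM. On a scale made from protein-coding genes alone, every TPM of a protein-coding gene would be 1.67 to 1.77 times as high, depending on the library.

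The genome holds several copies of the 7SL RNA that are much alike, and another one, RN7SL3, had 1862, 1760.0 and 1602 TPM. AL139099.5 lies inside the span of RPS29 on the opposite strand. How reads that map equally well to several copies were counted is not given in the sources used here, so the levels of single copies are uncertain. RN7SK, a regulator of transcription elongation and another abundant short RNA, is listed in 2 rows at overlapping positions on the same strand, and both rows had 0 counts in all 3 libraries.

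**Figure D1:**
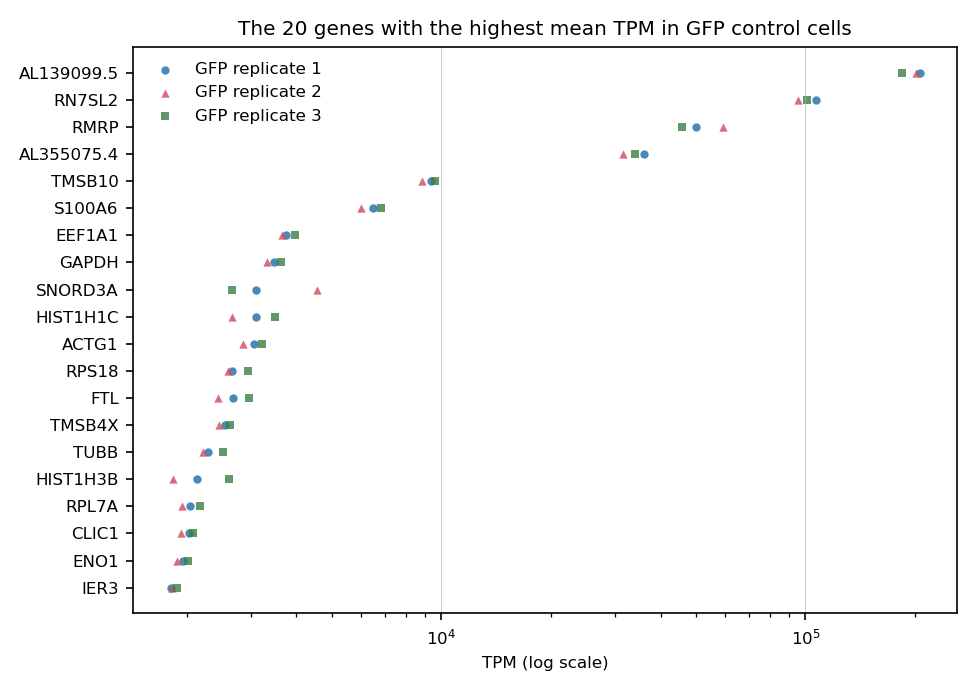
TPM (log scale) of the 20 genes with the highest mean TPM, with 1 point per GFP library. The 4 short noncoding RNAs stand apart at the top, with AL355075.4 lowest of them at 31634 TPM in replicate 2, and SNORD3A has the widest spread, with replicate 2 highest.

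Below these noncoding RNAs came genes of the actin cytoskeleton, calcium binding, translation and glycolysis. TMSB10, which encodes the actin-monomer-binding peptide thymosin beta-10, had 9341, 8863 and 9615 TPM, the highest of any protein-coding gene. S100A6, a calcium-binding protein, had 6484, 6016 and 6819.6 TPM. EEF1A1, the elongation factor that delivers tRNAs to the ribosome, had 3736, 3647 and 3954 TPM, and the glycolytic enzyme GAPDH had 3474, 3317 and 3632 TPM. Replicate 2 had the lowest level of each of these 4. Among the other members of the 20 highest were ACTG1 (cytoplasmic actin, 3039.7 ± 186 TPM), RPS18 and RPL7A (ribosomal proteins, 2731 ± 184 TPM and 2053 ± 113 TPM), FTL (ferritin light chain, 2694 ± 258 TPM), TMSB4X (2542 ± 87.1 TPM), TUBB (beta-tubulin, 2340.2 ± 148 TPM), CLIC1 (2012 ± 76.3 TPM) and ENO1 (enolase, 1949 ± 68.1 TPM). The linker histone HIST1H1C had 3092, 2667 and 3502 TPM and the core histone HIST1H3B had 2133, 1831 and 2613 TPM. SNORD3A, the U3 RNA that guides cleavage of ribosomal RNA precursors, had 3092, 4551 and 2657 TPM.

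By CPM, which does not divide by length, the 10 highest genes were the same 4 noncoding RNAs and 6 protein-coding genes. EEF1A1 was at rank 3 with 8603 ± 379.5 CPM, and FLNA, the long actin crosslinker filamin A, at rank 6 with 4316 ± 220.3 CPM against a TPM rank of 47. HSPA8, the constitutive HSP70 chaperone, was at rank 9 with 3123 ± 99.7 CPM. The 100 highest genes took 18.95% to 19.5% of counts and 50.7% to 53.2% of TPM.

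Some gene families of one function were present nearly whole, and others in part. Of 86 ribosomal protein genes 82 were present, with a median of 410.2 TPM and 4.53% to 5.08% of counts. Those that shared their span with another protein-coding gene on the same strand had a median of 165 TPM (8 present genes) against 427 TPM for the other 74. The 3 lowest of the 8 were RPL36A with 4.36 ± 0.625 TPM, RPL17 with 27.5 ± 2.41 TPM and RPS10 with 33.8 ± 0.762 TPM, each overlapped by a readthrough gene of the table. Levels of such overlapped genes are uncertain, since how shared reads were counted is not given in the sources used here. Proteasome subunits were present in 37 of 39 genes with a median of 113 TPM. Replication-dependent histones, whose mRNAs end without a poly(A) tail, were present in 42 of 73 genes and made up 2.15% to 2.82% of TPM. Their share of 57.5% was near the 56.3% over all protein-coding genes. All 13 mitochondrial protein genes were present, led by the cytochrome oxidase subunits MT-CO3 with 1177, 1037 and 1142 TPM and MT-CO1 with 1097, 987 and 1039 TPM. At the other end, 1 of 358 olfactory receptor genes, which belong to sensory neurons, reached the level.

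Among nuclear receptors, the ligand-controlled transcription factors, 26 of 48 were present with a median of 2.18 TPM, beside 56.3% and 3.19 TPM over all protein-coding genes. Medians of gene lists here and below are over all matched members, present or not. Counts of present members in lists of protein-coding genes stand against that 56.3%, and several lists lie near it. The estrogen receptor gene ESR1 had 3, 6 and 0 counts in replicates 1, 2 and 3, and the progesterone receptor gene PGR had 0, 0 and 1 counts. These are a few counts in libraries of the totals given above. The second estrogen receptor gene ESR2 had 67, 58 and 48 counts, or 0.1901 TPM on average. In contrast the glucocorticoid receptor gene NR3C1 led the family with 72.4, 80.5 and 76.5 TPM. The next were ESRRA at 62.5 ± 1.596 TPM, an orphan receptor of energy metabolism that shares its span with TRMT112 on the other strand, the sterol receptor NR1H2 at 62.03 ± 3.59 TPM and NR2F6 at 49.8 ± 5.18 TPM. The ranges of ESRRA and NR1H2 overlapped.

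Receptor tyrosine kinases, the cell-surface receptors that start RAS and PI3K signalling, were present in 29 of 58 genes with a median of 1.197 TPM. AXL, the receptor of GAS6 and protein S, was the most abundant with 588, 608 and 660.3 TPM. EPHA2, an ephrin receptor, had 300.4, 289 and 311 TPM and MET, the receptor of hepatocyte growth factor, had 139.5, 149.7 and 155 TPM. The ranges of these 3 did not overlap, nor did those of MET and the epidermal growth factor receptor gene EGFR, which had 46.98, 58.6 and 53.4 TPM. The level of AXL was 12.5, 10.4 and 12.4 times that of EGFR per length in replicates 1, 2 and 3. ERBB2 had 20.4, 21.4 and 22.8 TPM, at rank 12 of the 58, its partner ERBB3 had 1.31 ± 0.05601 TPM, and ERBB4 had 6, 20 and 9 counts. PDGFRB (12.9 ± 0.403 TPM) was present and PDGFRA (8, 2 and 18 counts) was not, and no count was found for ALK in any library.

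Other receptors for growth and inhibitory signals were led by TGFBR2 and TGFBR1, the serine-threonine kinases of the TGF-beta receptor, at 181 ± 7.71 TPM and 127 ± 10.6 TPM. Their family had 9 of 14 genes (median 7.19 TPM) present. Of the cytokine receptors 28 of 56 (median 1.26 TPM) were present. IL6ST, the gp130 chain shared by receptors of the IL-6 family, had 196, 231 and 204 TPM, and the interferon-gamma receptor genes IFNGR2 and IFNGR1 had 81.8 ± 3.698 TPM and 66.02 ± 2.43 TPM. IL13RA1 followed with 53.8 ± 2.58 TPM and LIFR, the partner of gp130 for leukemia inhibitory factor, with 50.9 ± 3.16 TPM. TNF receptors were present in 19 of 29 genes (median 6.75 TPM), with the TWEAK receptor TNFRSF12A at 322 ± 22.8 TPM, the death-domain receptor TNFRSF21 at 157 ± 6.29 TPM, and the TRAIL receptors TNFRSF10B and TNFRSF10A at 148 ± 5.08 TPM and 70.1 ± 1.57 TPM.

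Of the chemokine receptors 4 of 23 were present (17.4%), with a median of 0.0489 TPM. The 4 were CCRL2 at 30.8 ± 0.718 TPM, an atypical receptor, CXCR4 at 16.3, 14.3 and 14.9 TPM, the scavenger ACKR3 at 7.83 ± 0.719 TPM and CCR1 at 1.47 ± 0.0848 TPM. The counts of CCR1 and CCR3 may be shared, because the span of CCR1 overlaps that of CCR3 on the other strand. Of the 23 genes 6, CCR8, CCR9, CXCR2, CX3CR1, XCR1 and ACKR1, had no count in any library. Of the other G protein-coupled receptors listed, 38 of 70 (median 1.63 TPM) were present, led by the protease-activated receptor F2RL1 with 269, 287 and 279.8 TPM, the adhesion receptor ADGRE5 with 114 ± 2.78 TPM, the adenosine receptor ADORA2B with 90.1 ± 5.15 TPM and GPRC5A with 75.5 ± 4.52 TPM. SMO, the transducer of hedgehog signals, had no count.

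Integrins, the heterodimeric receptors for extracellular matrix, were present in 14 of 26 genes (median 1.23 TPM). ITGB1, the shared beta-1 chain, had 645, 693 and 679 TPM, and its laminin-binding partners ITGA3 and ITGA6 had 413 ± 16.6 TPM and 356 ± 14.5 TPM. The fibronectin-binding ITGA5 followed with 145 ± 2.93 TPM, and the leukocyte chains ITGAL, ITGAM and ITGAX had means of 0.00584, 0.0462 and 0.0443 TPM. All 12 genes listed for adenovirus attachment and entry were present (median 81.4 TPM), among them the coxsackie and adenovirus receptor CXADR with 16.7, 20.3 and 18.1 TPM and the integrin chain ITGAV with 106 ± 6.43 TPM. CXADR was lowest in replicate 1.

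Among lineage markers, mesenchymal structural genes and simple keratins were high, while the hormone receptor and cadherin genes of luminal epithelium were low. Of the mesenchymal markers 23 of 30 (76.7%) were present, with a median of 33.2 TPM. Of the epithelial markers 17 of 28 (60.7%) were present, with a median of 2.05 TPM. Over all protein-coding genes the share was 56.3% and the median 3.19 TPM, so the epithelial share was near that of all genes. Vimentin (VIM), the intermediate filament of mesenchymal cells, had 916, 1015 and 1012 TPM, while E-cadherin (CDH1), the adhesion protein of epithelia, had 1.15, 1.22 and 1.15 TPM. The ratio of the 2 was 793 to 879 in the 3 libraries. LGALS1 (galectin-1, 1548 ± 64.2 TPM), S100A4 (627 ± 28.4 TPM) and MMP14 (a membrane-bound matrix protease, 476 ± 9.44 TPM) were also among the 5 highest mesenchymal markers.

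The transcription factors of the mesenchymal list were not uniformly present. ZEB1, a repressor of epithelial genes, had 26.99, 29.4 and 28.3 TPM and SNAI2 had 26.9, 30.7 and 29.96 TPM, SNAI1 had 5.15 ± 0.503 TPM and ZEB2 had 1.302 ± 0.169 TPM, whereas TWIST1 and TWIST2 had no count in any library. Of the cadherins, CDH11 had 38.2, 38.9 and 39.3 TPM and N-cadherin (CDH2) had 1.37, 1.13 and 1.51 TPM, so the 2 ranges lay far apart. SPARC, a matrix glycoprotein, had 0.992, 0.737 and 0.7198 TPM and was not present by the rule.

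Members of the epithelial list covered a wide range. The epithelial factor EHF (90.2, 95.8 and 95.7 TPM), the desmosomal protein desmoplakin (DSP, 84.7 ± 8.54 TPM) and the tight-junction claudins CLDN4 and CLDN7 (76.1 ± 0.903 TPM and 22.5 ± 1.28 TPM) led it. CLDN7 is uncertain because ELP5 overlaps it on the other strand. EPCAM, a surface protein of simple epithelia, had 10.5 ± 0.311 TPM. In contrast the splicing regulator ESRP1 had 0, 2 and 0 counts, and the epithelial transcription factor GRHL2 had 13, 5 and 7 counts. OVOL1, OVOL2, RAB25 and PRSS8 had means of 0.0281, 0.0387, 0.0361 and 0.0918 TPM.

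Of the luminal breast markers 12 of 22 (54.5%, median 1.61 TPM) were present, near the 56.3% over all protein-coding genes. The simple keratins led, with KRT18 at 535, 506 and 591 TPM, KRT19 at 403, 423 and 412 TPM, KRT7 at 323, 304 and 335 TPM and KRT8 at 325, 300.5 and 335 TPM. The spans of KRT8 and KRT18 overlap on opposite strands in the table, so their separate levels are uncertain. The luminal regulators FOXA1 (4, 0 and 1 counts) and GATA3 (2.82 ± 0.179 TPM) were low, while SPDEF (44.03 ± 0.676 TPM) and the secretory protein AGR2 (48.7 ± 1.98 TPM) were not. Of the basal markers 14 of 25 (56%, median 3.06 TPM) were present, also near that share. They were led by caveolin-1 (CAV1, 487 ± 11.3 TPM), the laminin chain LAMB3 (404 ± 18.4 TPM), ITGA6 and the hair keratin KRT81 (149.5 ± 6.54 TPM). The keratins of basal and stratified epithelia were spread over a wide range. KRT15 and KRT17 were present at 3.06 ± 0.203 TPM and 1.48 ± 0.106 TPM, KRT16 was below the level at 0.389 ± 0.0755 TPM, KRT5 had 4, 9 and 5 counts, KRT14 3, 1 and 9 counts and KRT6A 3, 0 and 1 counts, and KRT6B had no count. SOX10 also had no count.

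**Figure D2:**
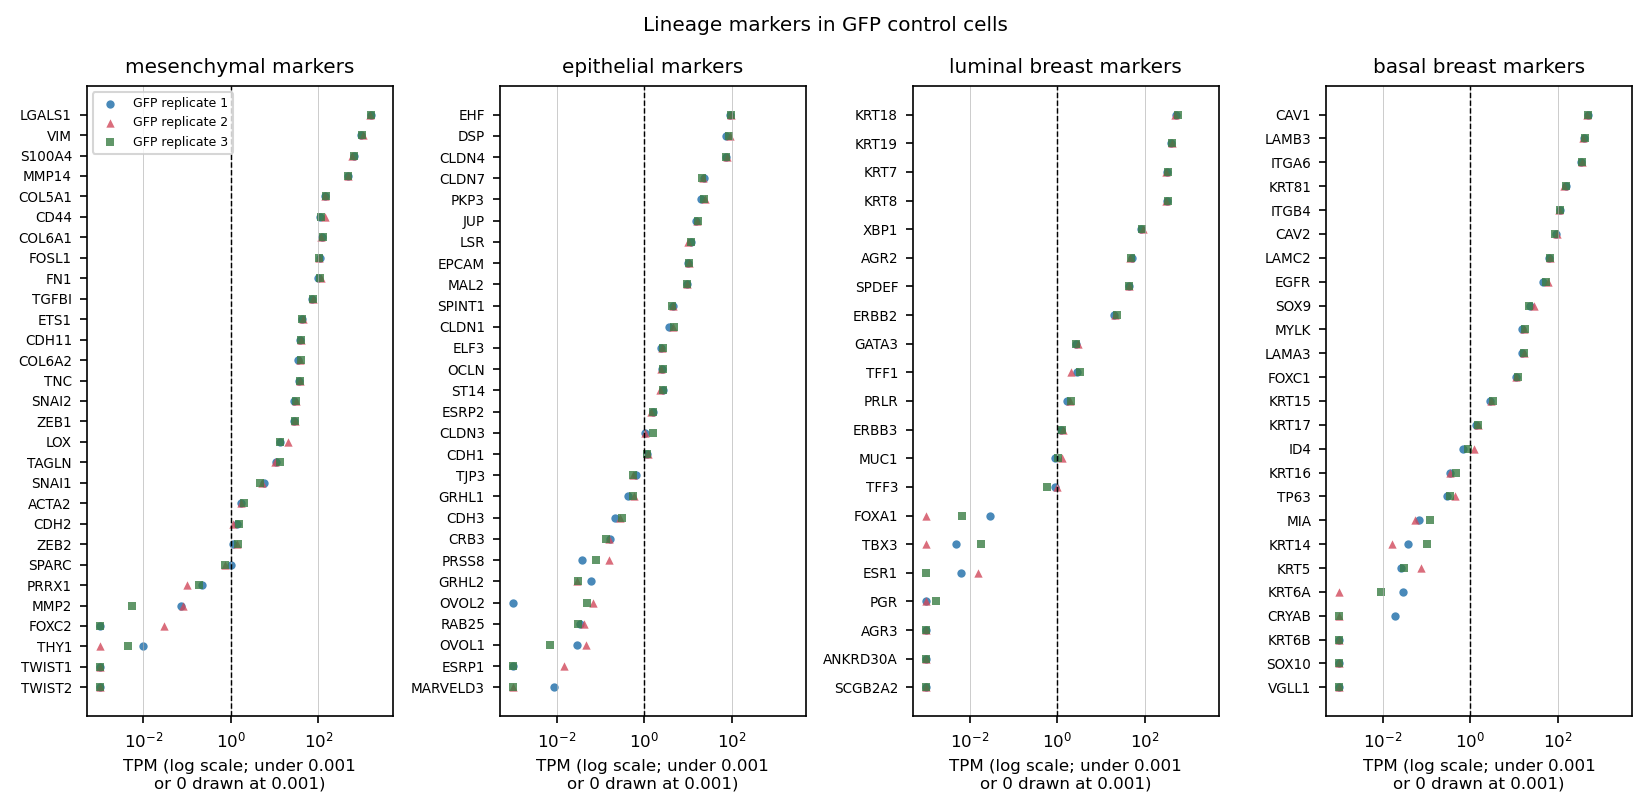
TPM (log scale) of members of the 4 lineage lists, with 1 point per GFP library, ordered by mean. The dashed line marks 1 TPM, and values of 0 or under 0.001 are drawn at 0.001. VIM, CAV1 and the simple keratins lie far to the right of CDH1, ESR1, PGR and KRT5 in all 3 libraries.

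Markers of leukocytes and of packaging cells were mostly at or near 0, while endothelial and fibroblast markers were mixed. Of 14 leukocyte markers 2 were present, CD14 at 4.93 ± 0.596 TPM and CSF1R at 3.88 ± 0.232 TPM, and the list summed to 9.86 to 10.98 TPM over the 3 libraries. PTPRC, the leukocyte antigen CD45, had 23, 24 and 23 counts, and CD3E, CD4, MS4A1, FCGR3A, NKG7 and TYROBP had no count. Of 9 matched endothelial markers 3 were present, the junction protein ESAM at 42.99 ± 2.07 TPM, ROBO4 at 5.12 ± 0.318 TPM and KDR at 4.19 ± 0.267 TPM, with a summed level of 50.99 to 54.8 TPM. CLDN5 had no count, CDH5 (VE-cadherin) had 3, 1 and 0 counts and VWF had 3, 13 and 14 counts. Of 12 fibroblast markers 6 were present (50%, beside 56.3% over all protein-coding genes), and the list summed to 40.9 to 42.7 TPM. The highest were COL6A3 at 15.6 ± 0.878 TPM and PDGFRB. COL1A1, COL1A2, LUM and FBLN1 followed with means of 3.66, 3.55, 3.03 and 2.78 TPM. In contrast PDGFRA, FAP, DCN and POSTN had means of 0.0269, 0.04402, 0.00225 and 0.0187 TPM. Of 10 genes of embryonic kidney packaging cells, in which adenoviral vectors are usually grown, 2 were present, GATA2 being 1 of them at 3.78 ± 0.657 TPM, and NEFM, PAX2 and SALL3 had no count. In bulk RNA, fewer cells of a type and less RNA per cell cannot be told apart.

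Inflammatory signals were concentrated in a few genes. Of 43 chemokine genes 11 (25.6%) were present (median 0.00329 TPM), and 21 had no count in any library. CXCL8 (IL-8), which attracts neutrophils, had 373, 397 and 373 TPM, and the related neutrophil chemokines CXCL2 and CXCL1 had 89.7, 98.5 and 92.7 TPM and 74.2, 85.2 and 76.8 TPM. The ranges of these 3 did not overlap. The next, CXCL3, CCL26 and CX3CL1, were at 7.96, 7.78 and 7.72 TPM on average, and the monocyte chemokine CCL2 at 0.5897 TPM.

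Of the interleukins and colony-stimulating factors 17 of 56 (median 0.0795 TPM) were present (30.4%). IL6, the main inducer of acute-phase proteins, had 247, 246 and 256 TPM, and CSF2, which encodes the myeloid growth factor GM-CSF, had 255, 236 and 254 TPM. These 2 overlapped in range, with an IL6 to CSF2 ratio of 0.968, 1.04 and 1.01. CSF1, the macrophage growth factor, had 138, 134 and 144 TPM, IL11 had 129, 135 and 144 TPM and LIF had 63.99, 64.9 and 64.8 TPM. Interleukin-1 genes were low, with 5.86 ± 0.506 TPM for IL1A and 0.974 ± 0.1005 TPM for IL1B. Of the TNF ligands 8 of 18 (median 0.515 TPM) were present, led by TNFSF10 (TRAIL) at 171, 171 and 168 TPM, with TNFSF9, TNFSF15 and LTB at 14.01, 10.3 and 8.28 TPM and TNF itself at 1.24 ± 0.102 TPM. No count was found for the interferon genes IFNB1 or IFNG.

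The promoters of the 2 highest chemokines, CXCL8 and CXCL2, and of the 2 highest genes of the interleukin and colony-stimulating factor list, IL6 and CSF2, are shown with any matches to 3 motifs. Sequences are from RefSeq (GRCh38.p14) and run 5′ to 3′ over 300 bases, of which the last 50 follow the start of the gene, with capitals at the matches on either strand:
CXCL8 promoter: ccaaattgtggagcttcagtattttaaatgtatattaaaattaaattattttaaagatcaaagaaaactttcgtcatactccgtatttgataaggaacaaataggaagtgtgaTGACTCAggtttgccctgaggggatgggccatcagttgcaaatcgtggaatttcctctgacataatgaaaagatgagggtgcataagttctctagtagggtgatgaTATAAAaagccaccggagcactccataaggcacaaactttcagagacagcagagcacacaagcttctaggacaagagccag
CXCL2 promoter: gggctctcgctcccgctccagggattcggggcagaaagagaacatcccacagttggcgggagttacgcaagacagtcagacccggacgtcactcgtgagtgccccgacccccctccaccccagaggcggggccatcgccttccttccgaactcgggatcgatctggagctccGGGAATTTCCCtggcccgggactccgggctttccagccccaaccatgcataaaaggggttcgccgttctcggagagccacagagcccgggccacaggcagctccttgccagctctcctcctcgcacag
IL6 promoter: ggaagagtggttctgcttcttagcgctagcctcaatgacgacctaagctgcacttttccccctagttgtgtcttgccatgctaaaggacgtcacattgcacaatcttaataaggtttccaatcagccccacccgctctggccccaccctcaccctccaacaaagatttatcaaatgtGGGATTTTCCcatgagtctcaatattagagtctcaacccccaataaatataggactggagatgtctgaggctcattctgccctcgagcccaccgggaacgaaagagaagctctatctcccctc
CSF2 promoter: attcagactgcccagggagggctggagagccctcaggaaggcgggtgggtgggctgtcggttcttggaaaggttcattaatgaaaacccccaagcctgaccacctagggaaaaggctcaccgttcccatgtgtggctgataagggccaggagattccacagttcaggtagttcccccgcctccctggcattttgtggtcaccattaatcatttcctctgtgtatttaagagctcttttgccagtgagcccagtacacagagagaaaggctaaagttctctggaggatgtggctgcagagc
They lie at chr4:73740319-73740618, chr4:74099146-74099445, chr7:22726950-22727249 and chr5:132073539-132073838, that of CXCL2 on the minus strand and the others on the plus strand. The motifs were the TATA box TATAAA, the AP-1 site TGANTCA and the NF-kappaB consensus of 10 bases, and none of the matches in these promoters overlapped a match to another motif. CXCL8 held an AP-1 site at -137, where the pattern TGANTCA matches on both strands, and the TATA box at -31 from its start. CXCL2 held the NF-kappaB consensus from -78 (and from -77 on the other strand), and IL6 held it from -73. CSF2 held no match to any of the 3 in this window. Only exact matches were taken, so variants of a site are missed. A promoter without a match, such as CSF2 or, for NF-kappaB, CXCL8, may still hold such a site. Among 35116 RefSeq promoters of this length, 5.91% held the NF-kappaB consensus, 7.71% the AP-1 site and 11.5% the TATA box. Of the chemokine, interleukin and colony-stimulating factor genes, 71 had a promoter in the table. The 22 promoters of the 19 present genes held the NF-kappaB consensus in 10 cases, the AP-1 site in 8 and the TATA box in 5. In the 74 promoters of the 52 genes below the level the numbers were 9, 12 and 25. A match describes letters only, and paralogs such as CXCL1, CXCL2 and CXCL3 share sequence, so these counts were not tested.

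Acute-phase and adhesion genes were present in 16 of 25 (median 3.84 TPM). The pattern-recognition protein PTX3 had 409.8, 472 and 432 TPM, serum amyloid A (SAA1) had 281, 274 and 301 TPM and the leukocyte ligand ICAM1 had 219, 222 and 213 TPM. PTGES, which makes prostaglandin E, had 50.6 ± 0.596 TPM, and its upstream enzyme PTGS2 (COX-2) had 3.84 ± 0.232 TPM. S100A8, S100A9, SELE, CRP and NOS2 had no count. Nearly all NF-kappaB signalling genes were present, 51 of 54 (median 17.4 TPM), and the exceptions were the endosomal receptors TLR7, TLR8 and TLR9. The inhibitor NFKBIA led with 187, 178 and 187 TPM, followed by the ubiquitin ligases BIRC2 (169 ± 5.06 TPM) and BIRC3 (153 ± 3.11 TPM) and the kinase IRAK1 (157 ± 8.91 TPM). The subunit genes themselves were at 32.7 ± 2.14 TPM for RELA, 23.6 ± 0.715 TPM for NFKB1, 87.6, 88.2 and 86.3 TPM for NFKB2 and 2.81 ± 0.261 TPM for REL.

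Genes known to respond to interferon were present in 45 of 47 (median 32.8 TPM), and no type I or type II interferon gene of the lists had a count. ISG15, a ubiquitin-like modifier, had 531, 487 and 598 TPM, IFIT3 had 377, 369.7 and 387 TPM, the tethering factor BST2 had 259.7 ± 13.8 TPM and DDX58, which encodes the RNA sensor RIG-I, had 124 ± 2.62 TPM. The 2 below the level were IRF9 (0.875, 0.939 and 0.966 TPM) and CMPK2 (0.913, 0.743 and 0.771 TPM). ADAR, the editing enzyme studied in this series, had 77.1, 85.8 and 85.8 TPM here, against 5.77, 6.46 and 6.34 TPM for its relative ADARB1. These libraries hold no cells without virus, and the part of the virus in the levels was not tested.

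Antigen presentation genes were present in 30 of 34, with a median of 41.1 TPM. The chaperones CALR and CANX had 778, 789 and 806 TPM and 706, 749.8 and 732 TPM, and HLA-B had 722 ± 20.6 TPM. The spans of HLA-B and HLA-C overlap in the table and HLA genes are variable and alike, so single HLA levels are uncertain. Class II genes were present in part, with 137, 142 and 137 TPM for HLA-DRA and 169 ± 8.03 TPM for the invariant chain CD74, whereas HLA-DQA1 had 0, 3 and 0 counts and HLA-DQB1 had 18, 9 and 18 counts. Of the immune checkpoint and stress ligands 13 of 21 (median 14.2 TPM) were present, led by PVR (205 ± 9.74 TPM), NECTIN2 (158 ± 7.17 TPM), MICB (144 ± 4.02 TPM) and MICA (121 ± 3.53 TPM). CD274 (PD-L1) had 57.3, 58.7 and 60.8 TPM, with replicate 3 highest, and the T-cell costimulators CD80 and CD86 had 0, 0 and 0 counts and 0, 1 and 1 counts.

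Ligands and receptors were set side by side in 48 pairs. They were chosen after their values were seen, so the counts describe these pairs only, and in bulk RNA both sides in a library need not come from the same cell. Both sides were present in 27 pairs, the ligand alone in 13 and the receptor alone in 8. EGFR was present with the 4 ligands paired with it here. Of these HBEGF had 175 ± 8.903 TPM, TGFA 84.6 ± 2.66 TPM, AREG 38.8 ± 3.898 TPM and EREG 36.4 ± 1.65 TPM. Its ligands BTC and EGF, which were not among the pairs, had means of 3.67 and 2.88 TPM. AXL was present with GAS6 (67.1, 75.02 and 74.98 TPM), LIFR with LIF, the TRAIL receptors with TNFSF10, and the urokinase receptor PLAUR (83.1, 80.98 and 85.6 TPM) with urokinase itself (PLAU, 785, 807 and 801 TPM).

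In the pairs with the ligand alone, the highest ligands were CXCL8, IL6, CSF2, IL11 and CXCL1. Next came VEGFC, PDGFC, BDNF and KITLG at 49.5, 41.04, 26.5 and 20.8 TPM on average, without FLT4, PDGFRA, NTRK2 and KIT. Only the receptor of the pair is meant here, and a ligand may have other receptors that are present. The inflammatory factors IL18 (14.8 TPM), CSF3 and CXCL10 (6.36 TPM) were lower than these. CXCL8 and CXCL1 had no counterpart at the level, as CXCR2 had no count and CXCR1 had 0, 2 and 0 counts. IL6 was present with gp130 but its own receptor chain IL6R had 0.403, 0.586 and 0.647 TPM, and IL11RA had 1.26, 1.34 and 0.971 TPM, under 1 TPM in replicate 3 alone. CSF2 was present with the alpha chain of its receptor, CSF2RA (38.5, 40.8 and 40.02 TPM), but the signalling beta chain CSF2RB had 3, 0 and 9 counts. CSF3 (7.86 ± 0.834 TPM) met no count of CSF3R. The pairs with the receptor alone included MET without a count of HGF, CXCR4 and ACKR3 without CXCL12, CD40 (41.7 ± 1.43 TPM) without CD40LG, IFNAR1 (30.04 ± 2.02 TPM) without IFNB1, IFNGR1 without IFNG, and OSMR (34.3 ± 4.16 TPM) with OSM at 0.114 ± 0.0541 TPM. The span of OSMR overlaps RICTOR on the other strand.

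**Figure D3:**
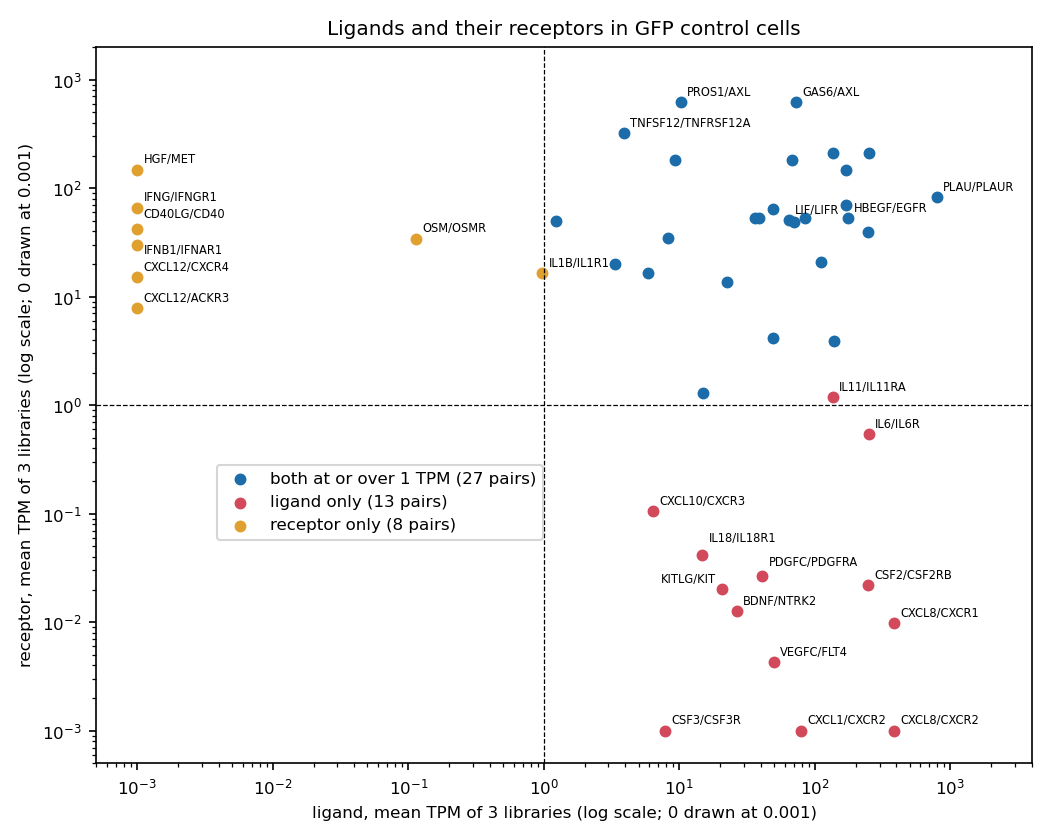
Mean TPM over the 3 GFP libraries of the ligand (x axis) and the receptor (y axis) of 48 pairs, both on log scales with 0 drawn at 0.001 and dashed lines at 1 TPM. Pairs present by the 3-library rule on both sides number 27; IL11 with IL11RA lies just above the line but misses the rule in replicate 3.

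The RAS-MAPK cascade and its feedback genes were present in all 35 members, with a median of 45 TPM. The early response gene IER3 had 1806, 1824 and 1877 TPM, far above the rest, and the phosphatases DUSP5 and DUSP6, which switch off ERK, had 231 ± 3.98 TPM and 167 ± 2.53 TPM. The RAS gene NRAS had 151, 159 and 151 TPM. AP-1 and related transcription factors, only some of which act downstream of the cascade, were present in 18 of 20 (median 25.9 TPM). The highest were ATF4 (212 ± 10.1 TPM), FOSL2 (131 ± 5.55 TPM), JUN (124 ± 10.6 TPM) and FOSL1 (105 ± 2.07 TPM). All 20 YAP-TEAD genes were present too (median 56.3 TPM). Beside AXL, the targets ANKRD1 and CYR61 had 553, 539 and 587 TPM and 216, 292 and 244 TPM, and the regulator AJUBA had 139 ± 9.83 TPM. The factor YAP1 itself had 80.6 ± 3.14 TPM.

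Proteases and their inhibitors were present in 35 of 48 (median 17.3 TPM). Urokinase (PLAU), at the level given above, was among the 4 highest. The protease MMP14 and the metalloprotease inhibitor TIMP1 had 476 ± 9.44 TPM and 299 ± 22.9 TPM. The interstitial collagenase MMP1 had 69.2 ± 2.504 TPM, while the gelatinases MMP9 and MMP2 had 1.13 ± 0.136 TPM and 0.0522 ± 0.0409 TPM. In the S100 family 11 of 19 listed genes (median 13.5 TPM) were present, and S100A6 exceeded S100A4 by 10.3-fold (± 0.263, SD, n = 3). S100A11 had 508 ± 66.03 TPM and S100A16 426 ± 14.96 TPM. Annexins and galectins were present in 14 of 22 (median 24.5 TPM), with ANXA2, ANXA5 and ANXA1 at 555 ± 16.3 TPM, 507 ± 4.13 TPM and 386 ± 10.8 TPM.

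All 42 cytoskeletal genes were present, with a median of 323 TPM, and after TMSB10, ACTG1, TMSB4X and TUBB came ACTB at 1681 ± 81.2 TPM. Glycolytic genes were present in 23 of 29 (median 49.2 TPM). After GAPDH and ENO1 came TPI1 (1016 ± 26.2 TPM) and PKM (835 ± 10.7 TPM), and the lactate dehydrogenases LDHA and LDHB were at 722, 766 and 749 TPM and 565, 572 and 598 TPM. The glucose transporter SLC2A1 had 226 ± 6.69 TPM, and the lactate exporter SLC16A3 had 151 ± 8.63 TPM where its relative SLC16A1 had 0.427 ± 0.03897 TPM. All 29 iron and redox genes were present (median 197 TPM), led by FTL, thioredoxin (TXN, 864 ± 42.9 TPM), PRDX1 (709 ± 31.8 TPM) and GPX1 (482 ± 29.2 TPM). The ferritin heavy chain FTH1, which has many processed copies in the genome, had 170.5, 219.9 and 208 TPM, and the FTL to FTH1 ratio ran from 11.1 to 15.7.

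Cell cycle genes, inhibitors of the cycle included, were present in 37 of 42 (median 48.2 TPM). The highest were TOP2A (384 ± 16.9 TPM), cyclin B1 (CCNB1, 382 ± 11.9 TPM), PCNA (265 ± 7.25 TPM) and cyclin A2 (CCNA2, 257 ± 12.3 TPM). The CDK inhibitor CDKN1A had 137, 132 and 136 TPM. SFN (14-3-3 sigma), which holds cells before mitosis, had 136 ± 9.08 TPM. Apoptosis regulators were present in 31 of 35 (median 24.9 TPM), with the survival proteins BCL2L1 (BCL-XL) and MCL1 at 334, 329.9 and 349 TPM and 308, 335 and 306 TPM and BCL2 at 2.77, 3.66 and 3.35 TPM. The pro-apoptotic PMAIP1 (NOXA) had 191 ± 14.2 TPM and the effector BAK1 182 ± 6.47 TPM.

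Growth factor ligands were present in 40 of 69 (58%, median 2.66 TPM), near the share over all protein-coding genes. After HBEGF came the Notch ligand JAG1 (116 ± 3.17 TPM), BMP4 (111 ± 7.09 TPM) and TGFA, and the vascular factors VEGFC and VEGFA had 49.5 ± 1.94 TPM and 48.8 ± 1.64 TPM. HGF, IGF1, FGF10, NRG3 and EFNA2 had no count. Of the long noncoding and structured RNAs 31 of 37 (83.8%, median 29.3 TPM) were present. The members of this list were chosen, and the share does not describe noncoding RNA in general. Over all genes the share was 23%, and over all genes typed as long intergenic noncoding RNA it was 6.46%. MALAT1, which marks nuclear speckles, had 565, 772 and 442 TPM, and the telomerase RNA TERC had 413 ± 53.2 TPM. RNA editing enzymes were present in 9 of 19 (median 0.742 TPM), with ADAR followed by APOBEC3C (18.98 ± 0.209 TPM), ADAT1 (16.9 ± 1.11 TPM) and APOBEC3B (14.3 ± 1.19 TPM).

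A stretch of the short arm of chromosome 9 was nearly without counts. From HACD4 to IZUMO3 (chr9:20999514-24545944, hg19) the table lists 25 protein-coding genes, 19 of which had no count and none of which exceeded 3 counts in a library. This includes the cell-cycle inhibitors CDKN2A (2, 0 and 0 counts) and CDKN2B (0 in all 3), for which MDA-MB-231 is known as a line with a deletion. MTAP, a methionine salvage enzyme that most cells express, had 1, 1 and 1 counts, the ubiquitin ligase adaptor KLHL9 had 1, 2 and 1 counts and HACD4, a fatty acid elongation enzyme, had 1, 0 and 1 counts. Over all 68 genes of any type the stretch held 19, 20 and 14 counts. Of the 23 genes listed for this arm 3 were present, all outside the stretch: MLLT3 at 11.6 ± 0.601 TPM, TUSC1 and FOCAD. The genes next to it were present, with 1092, 868 and 1186 counts for FOCAD on 1 side and 284, 287 and 357 counts for TUSC1 on the other.

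Runs of near-silent genes were common in the table, so the stretch was set beside them. With at most 5 counts per gene over the 3 libraries as the limit, and leaving out the mitochondrial genome and chromosome Y, it was 1 of 3 runs of 25 consecutive protein-coding genes, and 4 of the 2708 runs held more genes. The longer runs were clusters such as the 57 genes from OR4B1 to APLNR, rich in olfactory receptors, and the 47 from FLG2 to S100A7, rich in skin barrier genes. Within the stretch 16 of the 25 genes encode interferons, which are silent in most resting cells. RNA counts do not measure DNA copies, and a deletion was not tested here.

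**Figure D4:**
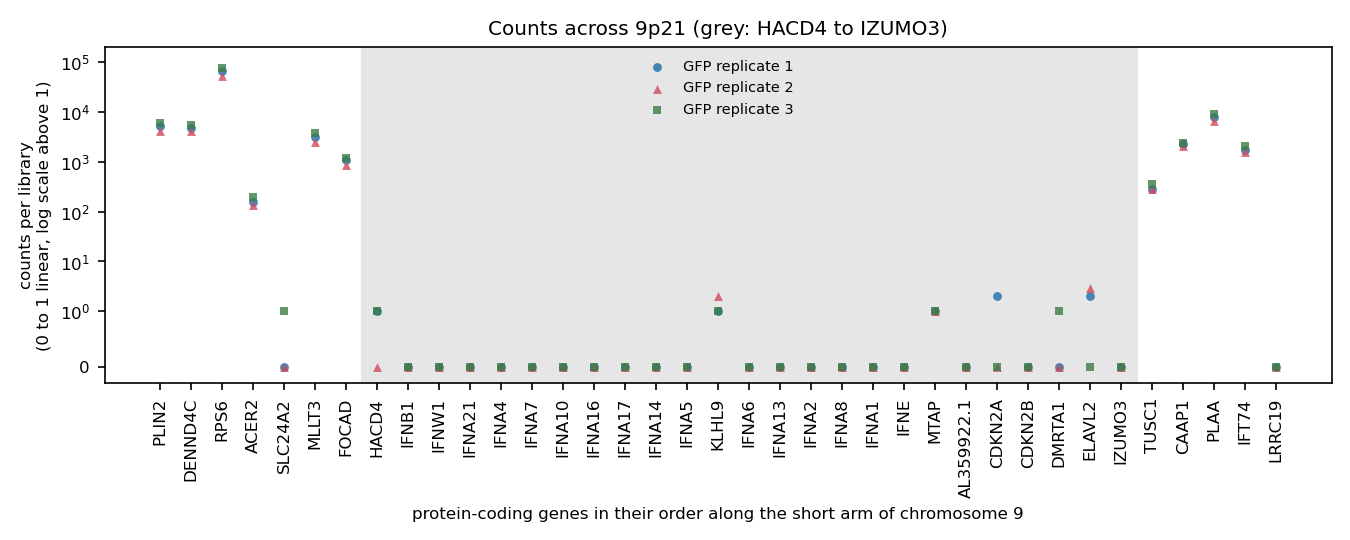
Counts per library (linear to 1, log scale above) of protein-coding genes in their order along the short arm of chromosome 9, with 1 point per GFP library. No gene in the grey stretch exceeds 3 counts, while FOCAD has 868 to 1186 and TUSC1 284 to 357.

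The 3 libraries agreed closely in rank and level. Over the 9450 genes with a mean of at least 10 CPM (scaled by TMM, edgeR's trimmed mean of log ratios), Pearson's r of log2 CPM across genes was 0.995 to 0.998 for the 3 pairs. Genes are not independent replicates, and this r describes the libraries only. The chi-square of counts was 9.53 per degree of freedom between replicates 1 and 3, 19.2 between 1 and 2 and 19.7 between 2 and 3, which is above sampling noise for every pair. The coefficient of variation (CV, the SD over the mean of 3 CPM values) had a median of 4.29% over these genes, where counting alone gives 1.55% at the median count. A CV over 10% was found in 756 genes (8%) and over 25% in 31. Between 1 and 10 CPM the median CV was 9.47%. The biological coefficient of variation that edgeR fitted was 6.94%.

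Replicate 2 stood apart from the other 2. Without it the biological coefficient of variation was 4.57% and the median CV 2.52%, against 7.79% and 4.07% without replicate 1 and 7.96% and 4.12% without replicate 3. It differed over 1.5-fold from the mean of the other 2 in 27 genes, all of them higher, against 4 genes for replicate 1 and 6 for replicate 3. Its total of 72741235 counts was the lowest of the 3.

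All of the 12 genes with the largest CV had their highest level in replicate 2. Leading them was SNORA71A, a small nucleolar RNA, with 9.58, 24.6 and 7.17 CPM and a CV of 68.6%. The nuclear long noncoding RNA NEAT1, the scaffold of paraspeckles, had 464, 549.6 and 251 CPM (36.5%). RAPH1, a regulator of the actin edge, had 78.6, 138 and 78.9 CPM, TOP1, the DNA topoisomerase, had 76.6, 123 and 70.4 CPM and the cohesin loader NIPBL had 64.5, 104 and 62.4 CPM. The others were TMEM160, SNORA73B, SNHG3, RMI1, C18orf54, C20orf24 and SPEN, with CVs of 30.1% to 37.8%. SNORA71A and SNORA73B lie inside the host genes SNHG17 and SNHG3 on the same strand. MALAT1 had 1957, 2543 and 1458 CPM, in the same order of libraries as NEAT1. At the other end CLEC16A had 24.6 CPM in every library (CV 0.0539%) and RNF144B 19.7 CPM (CV 0.0628%). The 12 smallest CVs lay below the 1.84% that counting alone gives at the median count of genes between 10 and 100 CPM, and do not mark these genes as more stable than others.

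The deviation of replicate 2 went with gene length and gene class. Protein-coding genes at 10 CPM or more were split by deposited length into 5 groups of nearly equal size, and its median log2 CPM minus the mean of the other 2 was -0.08 in the shortest group (297 to 3187 bases), -0.04, -0.02 and 0.01 in the next, and 0.07 in the longest (8610 to 46064 bases). In the longest group 72.4% of genes were higher in replicate 2, and in the shortest 23.2%. Across these 9259 genes its deviation and log2 length had a Pearson's r of 0.409, and those of replicates 1 and 3 had -0.294 and -0.290. The 3 values are tied, as each library enters the deviation of the others.

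Of the gene groups compared, histones had the largest median deviation in replicate 2. Over all 9450 genes at 10 CPM or more, 45.2% were above the mean of the others in replicate 2 and 55.2% in replicate 3, and the counts of each group stand against these shares. Replication-dependent histones had a median deviation of -0.31 in replicate 2 and 0.25 in replicate 3, with 1 of 34 genes above the others in replicate 2 and 34 of 34 in replicate 3. Of 81 ribosomal protein genes 2 were higher in replicate 2 (median -0.17), and of 9 S100 genes 0 (median -0.12). TGF-beta family receptors were the reverse, with 9 of 9 higher in replicate 2 (median 0.10). Of 8 small nucleolar RNA genes none was higher in replicate 3 (median -0.23). In replicate 2, 5 of the 8 were higher (62.5%, median 0.20), beside 45.2% over all genes, and so few genes make this share uncertain. The part of length, RNA quality or culture in these differences was not tested.

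**Figure D5:**
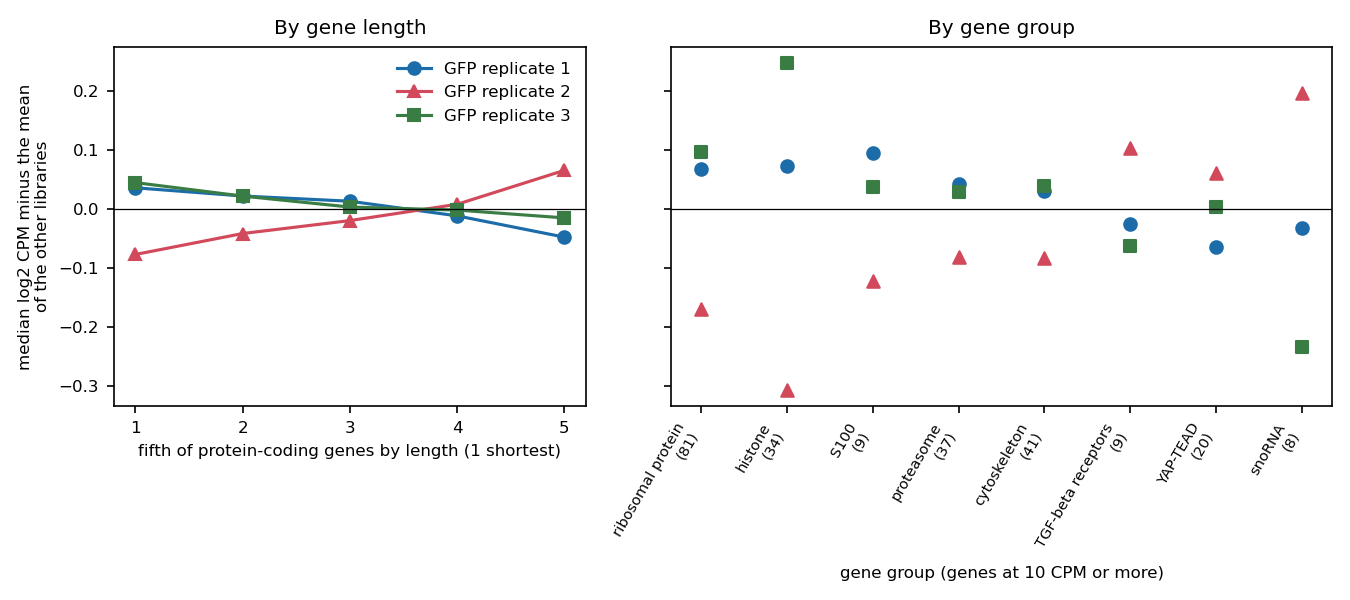
Median log2 CPM of each GFP library minus the mean of the other 2, by 5 groups of protein-coding gene length (left) and by gene group, with the number of genes in brackets (right). Replicate 2 runs from -0.08 in the shortest group to 0.07 in the longest and lies lowest for histone and ribosomal protein genes.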

How the data were processed

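Total RNA of GFP-transduced MDA-MB-231 cells was sequenced in 3 libraries, made with a stranded total RNA kit per the labels' protocols. The submitters' processing notes name the build hg19, the aligner STAR (2.5.2a), the counter featureCounts (1.5.1), DESeq2 (1.4.5) and R (3.1). The deposited values are raw counts per gene, whole numbers in 1 table with gene type, position and length, per the file headers. Not given in the sources used here were the strand setting, the treatment of reads with several alignments and the definition of the deposited length. The length equals the genomic span in 24548 genes and is shorter in the other 35913. Overlapping, antisense and near-identical genes are therefore uncertain. Beside those described in place, CCNA2, CDH2, ERBB2, GATA2, IFIT3, IFNGR2, MICA, MMP9 and RAPH1 overlap a gene with at least 10% of their counts.

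CPM, TPM and CV were computed in Python 3.11.15 with pandas 2.3.3. TMM factors (0.997 to 1.01) and the common dispersion, in an intercept-only fit after filterByExpr with a minimum count of 10, came from edgeR 4.0.16 in R 4.3.3. DESeq2 1.42.0 size factors were an alternative. Deviations used log2(CPM + 0.5). Both steps were checked on simulated counts. Totals ran from 72741235 to 99589278. Figures were drawn with matplotlib 3.10.9.

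Groups came from the sample titles. No test was run, since 1 group gives no comparison. The 41 lists hold 1252 symbols, of which PECAM1, RN7SL1, RPPH1 and CCAT1 were not matched in the table by symbol or gene identifier. That does not show that their RNA is absent, since it may be counted in a row of another name. The list of S100 genes includes S100PBP, a binding partner. Lists were described by members at 1 TPM in every library and by their median. The rule named the 20 highest genes by TPM and the 10 highest by CPM, the 4 highest of each list, the markers that define cell types, and the 12 largest and 12 smallest CVs at 10 CPM or more. Some genes it names are not described, and further genes were chosen after their values were seen. Some genes and sequences are not reported here. The members and lists were chosen with earlier results of these data known.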

Additional observations from a re-analysis of the deposited data

How the results depend on the processing

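The number of present genes stayed within 1.5 times of 13893 under all alternatives run, with 15785 at 0.5 TPM, 12134 at 2 TPM, 13051 at 1 CPM and 14772 by the mean of the 3 libraries, and 14092 to 14229 when a library was left out. The median of present protein-coding genes, 18.3 TPM, was 31.6 TPM over protein-coding genes alone and 22.8 TPM without AL139099.5, by the construction of the scale, and 18.1 to 18.6 TPM with a library left out. The top 100 genes held 51.9% of TPM and 19.2% of counts, or 51.2% to 52.4% of TPM with a library left out. List members present numbered 817, and 818 to 823 with a library left out. The biological coefficient of variation was 6.94%, 6.98% with library size alone, 6.95% with DESeq2 size factors and 7.15% without the low-count filter, but 4.57% to 7.96% with a library left out, the lowest without replicate 2. The median CV of 4.29% was 4.21% to 4.32% under other scalings or on the log scale and 2.52% to 4.12% with a library left out, again lowest without replicate 2. The cause was not tested. With n = 3, leaving out 1 library cannot move a mean by 1 SD, so that setting says nothing about the levels of single genes. Of the genes the naming rule gives, 178 moved by more than 1 SD on the scale of protein-coding genes alone and 1 did not, and on the scale without AL139099.5 172 did. No paired analysis was possible because there was 1 group. Depth limits genes under about 10 counts, for which a level could not be told from 0 or from assignment errors.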

Other observations

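Keratins and collagens, counted by gene name and not described above as families, were present in 11 of 55 and 21 of 45 genes, with medians of 45.5 and 17.2 TPM among the present. Genes whose names begin as those of HSP, DNAJ or CCT chaperones were present in 67 of 87 and took 1.82% to 1.83% of counts. The name alone does not make each of them a chaperone. Of 1458 small nucleolar RNA genes 157 were present and 1079 had no count, and the family took 0.102% to 0.162% of counts, most in replicate 2. The 2 mitochondrial ribosomal RNA genes took 8.09e-05% to 0.000117% of counts.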
